A study of Mus musculus with 4 samples.

Results

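The transcripts described here belong to p53 and a set of its known target genes other than Cdkn1a, the gene for p21, in mouse hearts in which GSK-3beta cannot be phosphorylated at serine 9. The list named 10 genes (Trp53, Mdm2, Ccng1, Gadd45a, Fas, Bax, Bbc3, Phlda3, Trp53inp1 and Zmat3), and every probe set that the platform annotation assigns to 1 of these symbols alone was taken. This gave 13 probe sets for 8 of the 10 genes, out of 45101 probe sets and 18193 genes in all. Trp53 and Bax were not analysed here, so the level of the p53 transcript itself is not described. GSK-3beta S9A knock-in hearts (2 samples, age 3.5 months) were set against wildtype hearts (2 samples, age 3.6 months). All samples carry the strain label C57B6, were taken at baseline, and were total RNA on Affymetrix 3' expression arrays, in which a probe set summarises several short probes of a transcript. The age difference follows the genotype and cannot be told apart from it. The labels do not say whether a sample is 1 animal, so a p-value here speaks only of sample-to-sample spread, and that spread may be technical.

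p53 is a transcription factor that is kept scarce by the ubiquitin ligase MDM2 and accumulates after DNA damage and other stresses. It then raises genes that halt the cell cycle, repair DNA, trigger apoptosis or feed back on p53. Cdkn1a, which encodes a cyclin-dependent kinase inhibitor, is its best known arrest target, and many of these genes also respond to other factors such as FOXO proteins, ATF4 and the glucocorticoid receptor. GSK-3beta is a kinase that insulin signalling switches off through serine 9, and it can phosphorylate p53 and MDM2.

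The promoter stretches below show which of the measured genes carry letters like those p53 binds close to a transcription start. p53 binds pairs of a symmetric decamer, which reads the same on both strands, and the search covered the 250 bases before each start in RefSeq promoter windows (build GRCm38.p6), where 6 of the 8 measured genes were matched by symbol. Trp53inp1 and Zmat3 were not matched. Capitals mark the best match to an adjacent pair of decamers in Ccng1, Bbc3 and, for comparison, Cdkn1a, and an exact single decamer in Gadd45a and Mdm2.
Ccng1 (chr11:40755442-40755501, minus strand): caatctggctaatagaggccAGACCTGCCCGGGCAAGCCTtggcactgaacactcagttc
Bbc3 (chr7:16309466-16309525, plus strand): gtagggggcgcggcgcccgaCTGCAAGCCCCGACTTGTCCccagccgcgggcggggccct
Cdkn1a (chr17:29090908-29090967, plus strand): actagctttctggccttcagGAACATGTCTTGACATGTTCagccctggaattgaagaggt
Gadd45a (chr6:67037418-67037467, minus strand): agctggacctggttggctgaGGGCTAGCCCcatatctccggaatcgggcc
Mdm2 (chr10:117710915-117710964, minus strand): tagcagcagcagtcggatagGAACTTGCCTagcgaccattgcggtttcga

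All of these stretches lie upstream of a transcription start, outside exons of that transcript. The Ccng1 and Cdkn1a pairs each differed from the consensus at 1 base, a match found in 0.0925% of the 27018 genes with a window. Where a gene had several starts, the window with the best match was counted. At the other start of Cdkn1a there was no exact decamer and the best pair differed at 5 bases. At the other starts of Bbc3 the best pairs differed at 5 and 8 bases. The best pairs of Bbc3 and Gadd45a differed at 3 bases, so that 3 of the 6 matched genes (Ccng1, Bbc3 and Gadd45a) held a pair with 3 mismatches or fewer, against 6.15% of all genes. An exact decamer was present in 3 of the 6 (Ccng1, Gadd45a and Mdm2) and in 8.2% of all genes. In Fas and Phlda3 no exact decamer was found in this window, which says nothing of sites elsewhere, and the known p53 sites of several of these genes lie in introns. A match is a run of letters and not a measured binding site.

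The arrays were alike in scale, with medians over all probe sets from 5.97 to 6.04 on the log2 scale and Pearson's r between arrays from 0.994 to 0.997 across genes, which are not independent replicates. Gsk3b, the altered gene, was at 9.62 and 9.72 on the wild-type arrays and at 9.82 and 9.87 on the knock-in arrays. Its difference of 0.18 (SE 0.10, adjusted p = 0.761, limma) became -0.17 with its 6 probe sets averaged, and a transcript level does not show the amino acid change. The heart label was borne out by 10 of 10 cardiomyocyte markers above the median of all genes, the brightest being Mb (myoglobin). Their differences between groups ran from 0.0011 to 0.091, the latter for Actc1 (cardiac actin), and all 10 were above 0. In 6 of the 10 both knock-in arrays were higher, where 19.6% of all genes were. Hepatocyte markers, a list drawn up with earlier results of these data known, lay apart by group, though none passed over all genes. All 15 measured were higher in both knock-in arrays, where 19.6% of all genes were, with differences from 0.46 to 2.84, the latter for Alb (serum albumin). All 15 had an unadjusted limma p under 0.05 on the higher side, where 4.4% of all genes did. Their summed linear level was 1388 and 970 in wild-type against 2777 and 4425 in knock-in hearts, with Serpina1c (alpha-1-antitrypsin) the brightest. Of 6 adipocyte markers, 2 were also higher in both knock-in arrays, where 19.6% of all genes were. These were Car3 (carbonic anhydrase 3), by 2.23 (adjusted p = 0.0724, limma), and Adipoq (adiponectin), by 1.13 (adjusted p = 0.237, limma), while the other 4 overlapped and Fabp4, the brightest, differed by -0.016. Itgam (-0.48) among 8 macrophage markers and Acta2 (-0.30) among 6 smooth muscle and pericyte markers also had an unadjusted limma p under 0.05. Itgam, dim at a mean of 5.13, went against its list, where 6 of 8 differences were above 0. Of the 8 macrophage markers, 5 were higher and 2 lower without overlap, where 19.6% and 17% of all genes were. Their summed linear level overlapped only just, at 7994 and 8521 in wild-type against 8519 and 8895 in knock-in hearts. In the smooth muscle and pericyte list 5 of 6 differences were below 0, the most different being Cnn1 (-0.43). Without overlap, 3 of these markers were lower and 1 higher, where 17% and 19.6% of all genes were. The summed linear level of this list was 18972 and 18823 in wild-type against 17537 and 17097 in knock-in hearts. The part of these markers in the differences of the members was not tested.

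None of the 8 measured genes passed the test over all genes, and they did not move together. Gadd45a and Ccng1 were higher in both knock-in hearts than in both wild-type hearts, Fas and Trp53inp1 were lower in both, and Mdm2, Bbc3, Phlda3 and Zmat3 overlapped between the groups. Over all genes 1 passed (0.0055%), which was Cdkn1a. With an unadjusted limma p under 0.05 were 2 members, Gadd45a on the higher side and Fas on the lower, where 7.39% of all genes had such a p, 4.4% on the higher side and 2.99% on the lower. The groups did not overlap in 4 of the 8 members, 2 in each direction, where 36.5% of all genes lay apart (19.6% higher, 17% lower). With 8 genes that count is near the background. The median difference of the members was -0.0052 on the log2 scale (0.00024 over all genes) and their median absolute difference was 0.155 (0.092 over all genes), with 5 of the 8 above the latter. In whole-heart RNA, fewer cells of a type and less RNA per cell cannot be told apart.

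**Figure D1:**
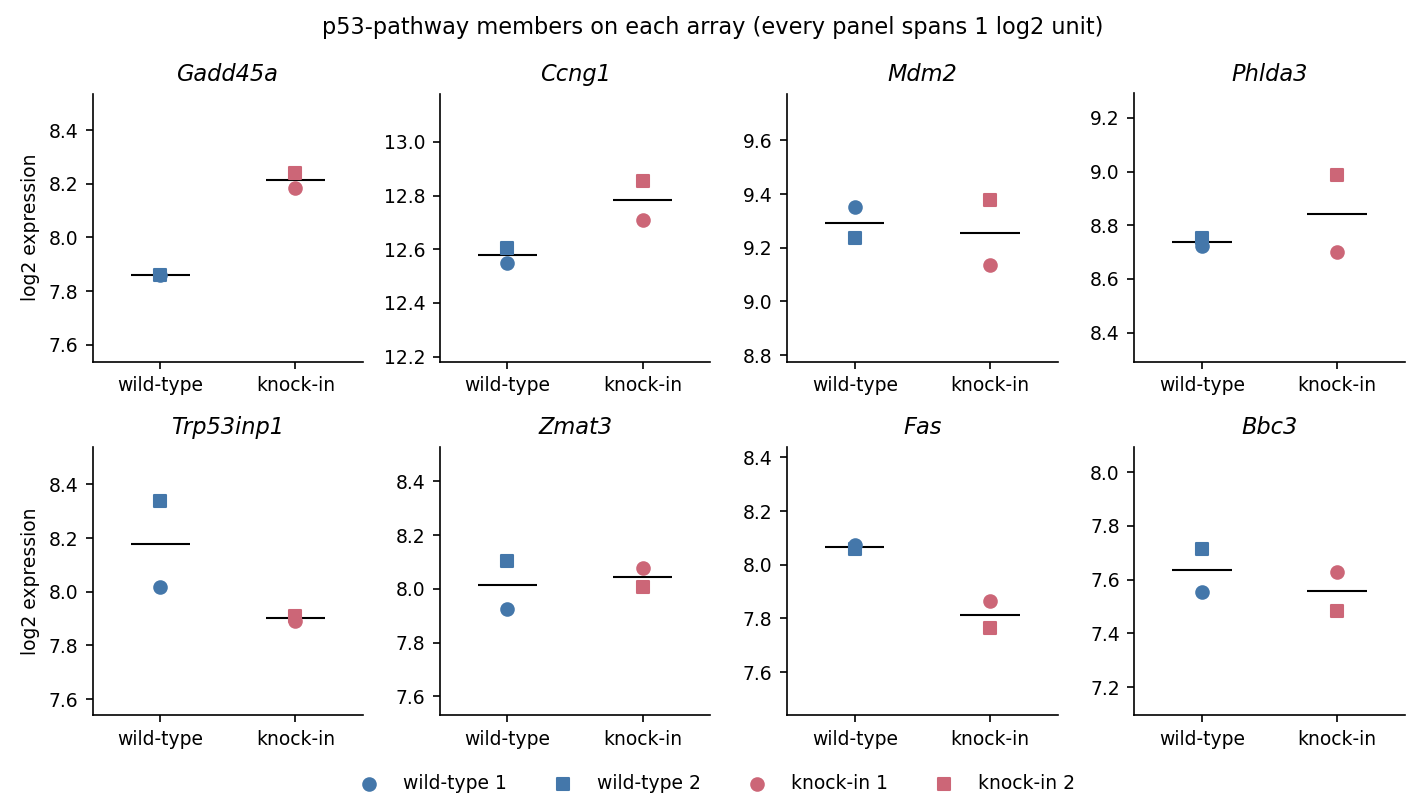
Log2 expression of the 8 measured genes on each array (wild-type blue, knock-in red, circles replicate 1, squares replicate 2), with a line at each group mean (n = 2) and every panel spanning 1 log2 unit. Gadd45a and Ccng1 have both knock-in points above both wild-type points, Fas and Trp53inp1 have them below, and the other 4 genes overlap.

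Each interval gives a range for its own gene at the spread of these arrays. As that spread may be technical and age follows genotype, it does not bound a change due to genotype. The 95% limma intervals of the 8 genes ran together from -0.59 to 0.58, that is from 1.51-fold lower to 1.498-fold higher. Cdkn1a was at 10.63 and 10.76 in wild-type and at 9.06 and 8.98 in knock-in hearts, a 3.19-fold fall (adjusted p = 0.0434, limma), and its interval from -1.92 to -1.42 lay outside the interval of every member. Its call was lost when any 1 array was left out (adjusted limma p from 0.151 without knock-in 1 to 0.408 without knock-in 2), with differences from -1.74 to -1.61. These values are for the probe set chosen for each gene. The other probe set of Cdkn1a, 1421679_a_at, differed by -1.35 (95% interval -1.65 to -1.046, adjusted p = 0.140 over all probe sets, limma). A further probe set of Mdm2, described below, had an interval reaching -1.048, so that these intervals just met.

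**Figure D2:**
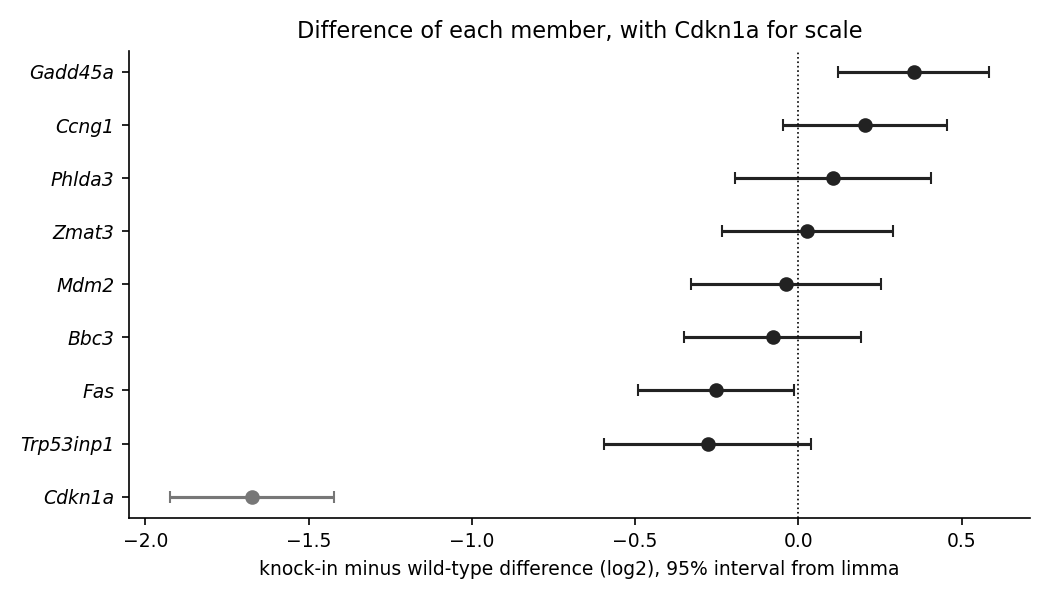
Knock-in minus wild-type difference (log2) of each member, with Cdkn1a in grey for scale. Points are limma estimates from 2 against 2 arrays and bars are 95% intervals. The interval of Gadd45a lies above 0, that of Fas below 0, the other 6 members span 0, and Cdkn1a lies apart between -1.92 and -1.42.

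Gadd45a and Ccng1 are tied to growth arrest and DNA damage. Gadd45a, a small stress protein that binds p21 and PCNA and activates p38 and JNK signalling, was at 7.86 on both wild-type arrays and at 8.19 and 8.24 on the knock-in arrays. The gap between groups was several times the gap within either of them. The difference of 0.35 (SE 0.10, 95% interval 0.12 to 0.58, 1.28-fold) had an unadjusted p of 0.0092 and an adjusted p of 0.438 from limma. Without knock-in 2 the unadjusted limma p was 0.0598 with a difference of 0.33. Gadd45a was thus on the opposite side from Cdkn1a, its fellow arrest gene.

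Ccng1 encodes cyclin G1, which recruits the phosphatase PP2A to MDM2 and is transcribed strongly in heart and muscle. Its brightest probe set read 12.55 and 12.61 in wild-type and 12.71 and 12.85 in knock-in hearts. The arrays lay apart by group, with the knock-in samples further from each other than the wild-type samples. The difference was 0.20 (SE 0.10, 95% interval -0.05 to 0.46, 1.15-fold), with an unadjusted p of 0.094 and an adjusted p of 0.733 from limma, and it was 0.13 without knock-in 2. This is the gene whose promoter stretch differs from the p53 consensus at the same number of bases as that of Cdkn1a. Of these 2 genes only Cdkn1a passed the test, and the interval of Ccng1 spans 0. The match in letters was not tested as a cause of either difference. The summed hepatocyte marker level and 2 of 6 adipocyte markers, Car3 and Adipoq, were higher in both knock-in hearts, as Gadd45a and Ccng1 were. The summed linear level of the adipocyte markers overlapped, at 10466 and 11193 in wild-type against 11087 and 10869 in knock-in hearts. With 2 arrays a group, the order of arrays within a group cannot link these markers to either gene. The part of these markers in the differences was not tested.

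Zmat3 (also called Wig1), a zinc finger protein that binds RNA and stabilises some transcripts, was at 7.93 and 8.10 in wild-type and at 8.08 and 8.01 in knock-in hearts. Both knock-in values fell between the wild-type values. The difference was 0.028 (95% interval -0.23 to 0.29), turning to -0.061 when wild-type 1 was left out and to -0.0082 when knock-in 1 was.

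Mdm2, Phlda3 and Trp53inp1 feed back on p53 or on survival signalling. Mdm2, the ligase that marks p53 for destruction, read 9.35 and 9.24 in wild-type and 9.13 and 9.38 in knock-in hearts with its brightest probe set. The wild-type values lay inside the knock-in range. The difference of -0.038 (95% interval -0.33 to 0.25, adjusted p = 0.982, limma) changed sign without wild-type 1 (0.018) and without knock-in 1 (0.083). Phlda3, a PH-domain protein that competes with Akt for membrane lipid and so restrains it, was at 8.72 and 8.75 in wild-type and at 8.70 and 8.99 in knock-in hearts. Knock-in 2 alone stood above the other 3 arrays. The difference was 0.11 (95% interval -0.20 to 0.41, adjusted p = 0.914, limma) and -0.038 without knock-in 2.

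Trp53inp1, a nuclear and autophagy-linked protein that promotes p53 phosphorylation by HIPK2, was at 8.02 and 8.34 in wild-type and at 7.89 and 7.91 in knock-in hearts. The knock-in arrays were close to each other and below both wild-type arrays, which were themselves 0.32 apart. The difference was -0.28 (SE 0.13, 95% interval -0.59 to 0.038, 1.21-fold lower), with an unadjusted p of 0.0756 and an adjusted p of 0.709 from limma. It depended on the wild-type array used, at -0.44 without wild-type 1 and -0.12 without wild-type 2.

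Fas and Bbc3 stand for the death arm of the response. Fas, the cell surface receptor that starts the extrinsic apoptosis pathway when it meets its ligand, was at 8.07 and 8.06 in wild-type and at 7.86 and 7.76 in knock-in hearts. Both knock-in arrays were below the closely matching wild-type arrays. The difference was -0.25 (SE 0.10, 95% interval -0.49 to -0.014, 1.19-fold lower), with an unadjusted p of 0.0409 and an adjusted p of 0.644 from limma. Leaving out 1 array gave differences from -0.20 (without knock-in 2) to -0.30 (without knock-in 1) and an unadjusted limma p from 0.0754 to 0.200, with the single array left in 1 group taken to have the spread of the rest. Of 7 measured markers of lymphocytes, a cell type in which Fas is well known, none had an unadjusted limma p under 0.05 and only 2 were brighter than the median of all genes. Their differences were all below 0 (from -0.27 for Ms4a1, the B cell protein CD20, to -0.022), with 5 of the 7 overlapping, and their summed linear level was 916 and 893 in wild-type against 840 and 816 in knock-in hearts, Ptprc (CD45) being the brightest. Their part in the Fas difference was not tested.

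Bbc3, which encodes the BH3-only protein PUMA that frees BAX and BAK from their inhibitors, was at 7.55 and 7.71 in wild-type and at 7.63 and 7.48 in knock-in hearts. The groups overlapped. The difference was -0.078 (95% interval -0.35 to 0.19, adjusted p = 0.942, limma) and 0.0020 without wild-type 2.

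Where a gene had several probe sets they did not always tell the same story. The 3 probe sets of Ccng1 differed by 0.20, 0.23 and 0.15, in the same direction. In the dimmest of them, 1450016_at, the knock-in arrays read 11.70 and 12.38 around the wild-type values of 11.86 and 11.91. The 3 probe sets of Mdm2 differed by -0.038, -0.40 and -0.17. The middle one, 1427718_a_at, rested on knock-in 1 at 7.98, against 8.82 in knock-in 2 and 8.90 and 8.68 in wild-type hearts, and its interval ran from -1.05 to 0.25. The third, 1457929_at, was dim at 4.60 and 4.47 in wild-type and 4.40 and 4.33 in knock-in hearts, with both knock-in arrays below. For Trp53inp1 the dimmer probe set, 1416927_at, gave 5.09 and 5.44 in wild-type and 5.36 and 5.30 in knock-in hearts. Its difference of 0.065 was opposite in sign to that of the brighter one, and the average of both gave -0.11. No member probe set passed when every probe set was tested as its own feature (smallest adjusted p 0.705, Gadd45a, limma), where 0% of 45037 passed and 5.84% had an unadjusted p under 0.05. Gadd45a alone of the 13 had an unadjusted p under 0.05 in that fit (0.0126), and Fas was at 0.0507.

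**Figure D3:**
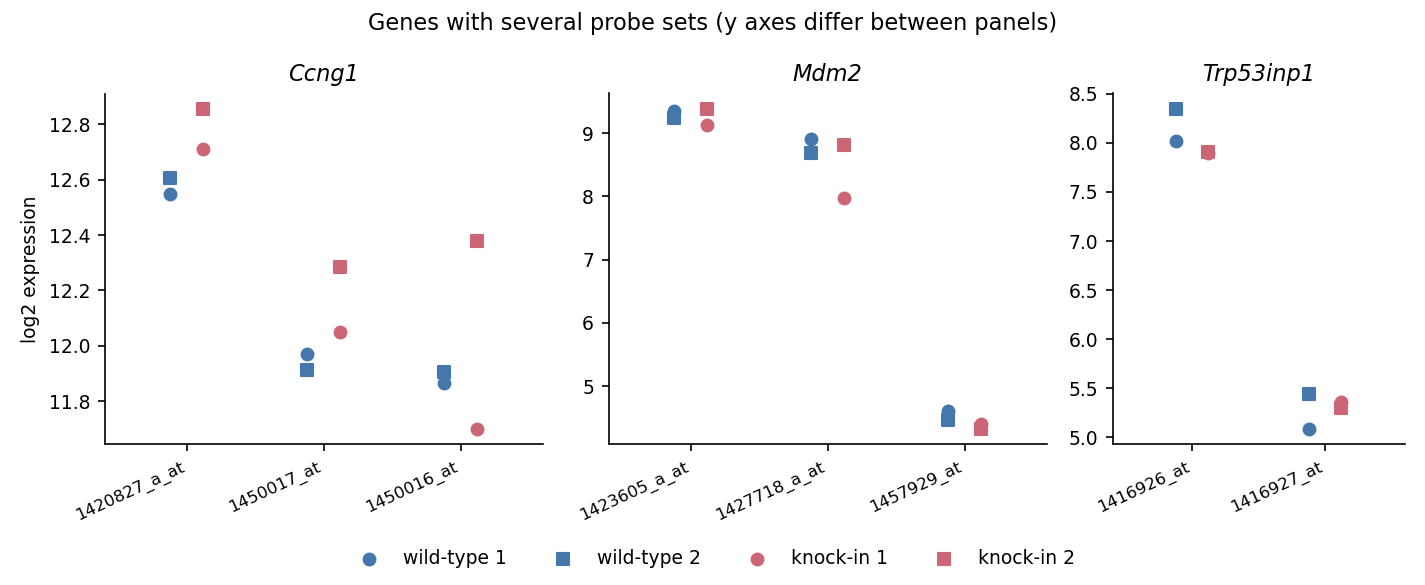
Log2 expression of every probe set of Ccng1, Mdm2 and Trp53inp1 on each array (wild-type blue, knock-in red, circles replicate 1, squares replicate 2), ordered from brightest to dimmest, with a different y axis per gene. The knock-in samples lie far apart in 1450016_at of Ccng1 (11.70 and 12.38) and in 1427718_a_at of Mdm2 (7.98 and 8.82), and close together in both probe sets of Trp53inp1.

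Other genes of the pathway were read from 3 lists. None of the 21 measured regulators of p53, the kinases, ligases, acetyltransferases and p53 relatives that act on it, passed the test or had an unadjusted limma p under 0.05 (Rpl5 was not analysed here). Their differences ran from -0.16 to 0.19 with a median of 0.016, and 3 of the 21 had groups that did not overlap, 2 higher and 1 lower, against 36.5% of all genes. Those of smallest p were Ppm1d, the WIP1 phosphatase that is itself a p53 target (-0.13, 8.22 and 8.34 against 8.20 and 8.10), the p53 relative Trp63 (0.12), the p53 cofactor Ppp1r13b (0.12) and the deacetylase Sirt1 (0.19). The Ppm1d difference was -0.0043 with its probe sets averaged and -0.075 without wild-type 2, and that of Ppp1r13b came to 0.048 when wild-type 1 was dropped and to 0.056 when knock-in 2 was. The sign of Trp63 turned to -0.15 with the probe set listed first, and that of Sirt1 to -0.092 without wild-type 1.

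Among 28 other measured p53 targets, Cdkn1a passed and 27 did not. An unadjusted limma p under 0.05 was reached by 2 higher and 3 lower, where 4.4% and 2.99% of all genes did so. The groups did not overlap in 12 higher and 5 lower, Cdkn1a among the latter, against 19.6% and 17% of all genes. Without Cdkn1a the median difference was 0.083 and the differences ran from -0.45 to 0.41. The matrix sulfatase Sulf2 was at 11.08 on both wild-type arrays and at 10.69 and 10.70 on the knock-in arrays (-0.38, unadjusted p = 0.0061, adjusted p = 0.399, limma). This was -0.18 (unadjusted limma p 0.105) with its probe sets averaged and -0.16 (0.211) with the probe set listed first. The anti-angiogenic matrix protein gene Thbs1 was at 7.41 and 7.83 against 7.19 and 7.15 (-0.45), and without wild-type 2 its difference was -0.24. On the other side, the desmosome-linked apoptosis gene Perp was at 10.41 and 10.43 against 10.80 and 10.64 (0.30). It had an unadjusted p of 0.0271 and an adjusted p of 0.581 from limma. The Perp difference was 0.27 (unadjusted limma p 0.0502) with quantile normalization, 0.22 without knock-in 1 and 0.38 without knock-in 2. Sesn1, which encodes the mTORC1 inhibitor sestrin 1 and was named after its values were seen to complete the count, was at 10.81 and 10.33 against 11.02 and 10.94 (0.41). This became 0.65 when wild-type 1 was left out and 0.17 when wild-type 2 was.

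The apoptosis genes that act beside Fas and Bbc3 included the largest differences of that arm. Of 20 measured, none passed, 2 had an unadjusted limma p under 0.05, both lower (7.39% of all genes in either direction), and the groups did not overlap in 2 higher and 3 lower (36.5% of all genes in either direction). Bcl2l11, which encodes the BH3-only protein BIM and is also a FOXO target, was at 10.10 and 9.76 in wild-type and at 9.36 and 9.20 in knock-in hearts. Its difference of -0.65 (SE 0.14, 1.57-fold lower) had an unadjusted p of 0.0032 and an adjusted p of 0.354 from limma. With the probe set listed first it was -0.19 (unadjusted limma p 0.172). Bcl2l1, the gene of the survival protein BCL-XL, differed in the same direction, at 9.64 and 9.55 against 9.32 and 9.29 (-0.30, but -0.17 with its probe sets averaged). A death gene and a survival gene were thus both lower. Casp9, the initiator caspase, was at 8.13 and 8.11 against 7.90 and 7.95 (-0.19, but -0.046 with its probe sets averaged and 0.14 with the probe set listed first), and Diablo, which relieves caspase inhibition, differed by -0.12 with overlapping groups (-0.058 without wild-type 1, -0.063 without knock-in 1). The list's median was -0.046.

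**Figure D4:**
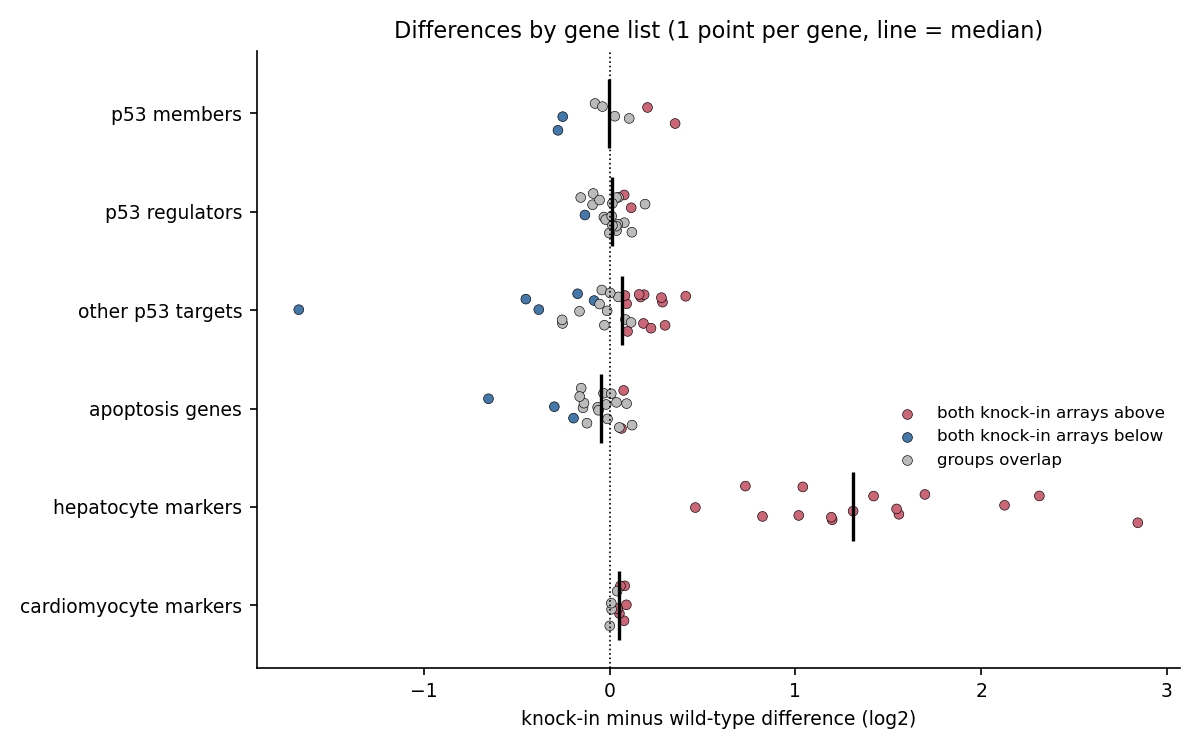
Knock-in minus wild-type difference (log2) of every measured gene in 6 lists, 1 point per gene with a line at the list's median. Red points have both knock-in arrays above both wild-type arrays, blue points have both below, and grey points overlap. The members lie between -0.28 and 0.35, Cdkn1a stands alone at -1.67 among the other p53 targets, and all 15 hepatocyte markers lie to the right.

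Across the 12 alternatives of processing or with 1 array left out, the differences ran from 0.33 to 0.38 for Gadd45a, 0.13 to 0.28 for Ccng1, -0.30 to -0.20 for Fas and -0.44 to -0.11 for Trp53inp1. In these 4 genes the groups did not overlap, so leaving out 1 array cannot turn the sign and says nothing of its stability. Gadd45a and Fas have 1 probe set each, so averaging probe sets or taking the first listed cannot alter their differences. Several other alternatives change only the error and leave the difference as it was. All 12 reuse the same 4 arrays, so the counts that follow are not independent checks. Gadd45a had an unadjusted limma p under 0.05 in 11 of the 12, Fas in 5, Trp53inp1 in 2 and Ccng1 in 1, and no member passed over all genes in any. Without knock-in 2 no member had an unadjusted limma p under 0.05, and without wild-type 2 or knock-in 1 only 1 had, Gadd45a.

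**Figure D5:**
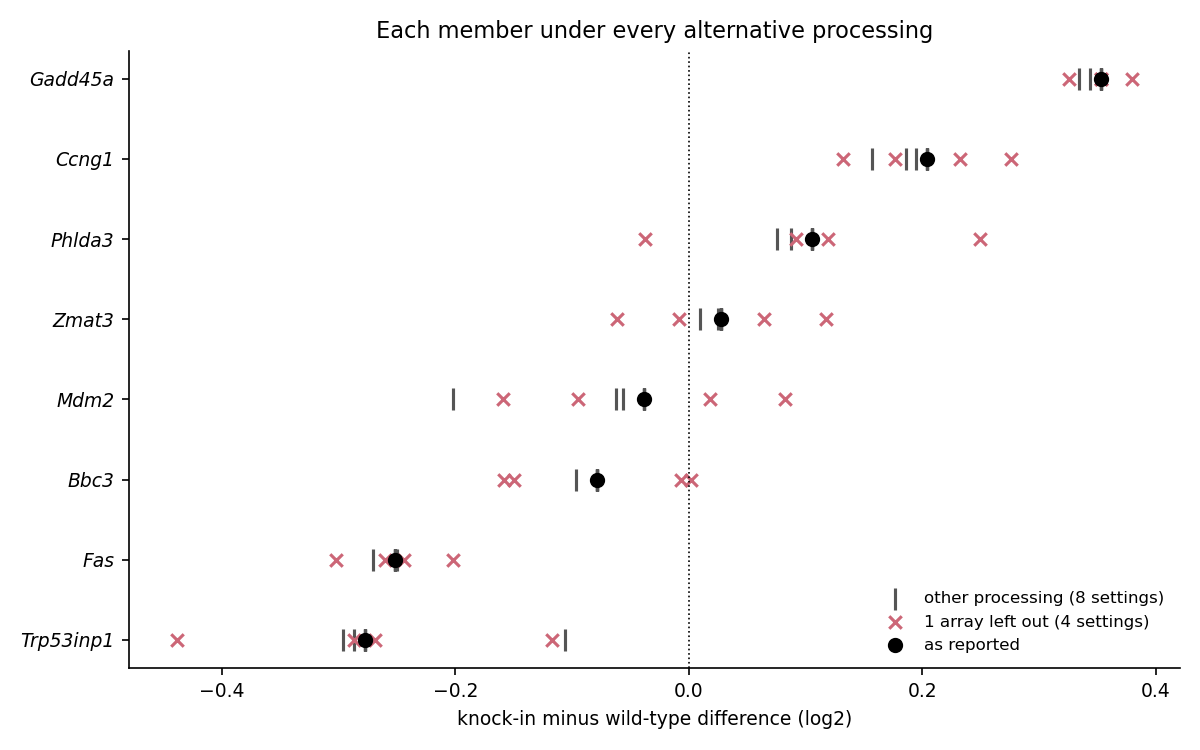
Knock-in minus wild-type difference (log2) of each member as reported (black), with 8 other ways of processing (grey ticks) and with each of the 4 arrays left out (red crosses). Gadd45a and Ccng1 lie above 0 and Fas and Trp53inp1 below 0, which leaving out 1 array could not alter, while Phlda3, Zmat3, Mdm2 and Bbc3 cross 0 when an array is left out.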

How the data were processed

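The deposited values are log2 expression per probe set, made by the authors with RMA in Affymetrix Expression Console per the submitters' processing notes (version not given in the sources used here), the wild-type arrays being normalized with the knock-in arrays of this comparison alone per the labels. RMA gives no detection call, and the number of arrays limits the precision. Of 45101 probe sets, 64 controls were left out, and 34945 had 1 symbol in the platform annotation, updated through Entrez identifiers with RefSeq's gene table where held (34741). A gene was read from its brightest probe set by the 4-array mean (18193 genes, no filter). Group differences came from limma 3.58.1 (lmFit, then eBayes, in R 4.3.3) with p-values two-sided and adjusted by Benjamini-Hochberg across the genes, called at 0.05. The fit was also run on data simulated from the spread that limma had fitted here. That checks the code and cannot show that the model suits these arrays. An exact permutation of 2 against 2 arrays cannot go below p = 0.333. The members and lists were chosen with earlier results of these data known. Genes named were all members, Cdkn1a, Gsk3a, Gsk3b, the 4 of smallest p in each pathway list, and the brightest and most different marker of each cell type list described. Adipoq, Itgam and Acta2 were named after their values were seen. Gsk3a was at 10.71 and 10.80 in wild-type and 10.76 and 10.83 in knock-in hearts (difference 0.041). Of the other marker lists, fibroblast (8 measured, Dcn brightest), endothelial (8, Kdr), smooth muscle and pericyte (6, Rgs5), macrophage (8, Lyz2), erythrocyte (4, Alas2) and adipocyte (6) markers had median differences of 0.033, -0.086, -0.12, 0.049, 0.035 and 0.019.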

Additional observations from a re-analysis of the deposited data

How the results depend on the processing

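No member passed over all genes under any of the 12 alternatives. The count of members with an unadjusted limma p under 0.05, 2 as reported, was 3 with the intensity trend and robust prior, 1 with every probe set as its own feature and 1 with the replicate block, and 0 to 2 with 1 array left out. The count of members whose groups did not overlap, 4 as reported, was 3 with averaged probe sets and 5 to 7 with 1 array left out (7 without knock-in 1), because a group of 1 array overlaps less easily. The members' median difference ran from -0.022 to 0.060 with 1 array left out, the latter without wild-type 2. Signs turned with 1 array left out for Mdm2 (-0.16 to 0.083), Phlda3 (-0.038 to 0.25), Zmat3 (-0.061 to 0.12), Bbc3 (-0.16 to 0.0020), Sirt1 (-0.092 to 0.47) and Gsk3a (-0.0014 to 0.084). They also turned with averaged probe sets for Gsk3b (-0.17) and Trp63 (-0.027), with the first probe set listed for Trp63 (-0.15) and Casp9 (0.14), and with quantile normalization for Gsk3a (-0.0029). The Cdkn1a call was lost in 7 of the 12, among them the replicate block (adjusted p = 0.420, limma). The deviations of same-numbered arrays from the group means correlated at -0.031 across genes. With 2 arrays a group this cannot decide whether those arrays were paired. With 2 arrays a group, a difference whose interval spans 0 was not detectable at this precision.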
